A study of Bos taurus with 4 samples.

Results

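Genes of the proteasome were followed in granulosa cells, the somatic cells that line the ovarian follicle and support the oocyte, from cattle whose oocytes were rated by developmental competence, in good and in poor donors. The members are all genes whose symbol in the platform annotation begins with PSMA, PSMB, PSMC, PSMD, PSME, PSMF or PSMG followed by a digit, and each gene is represented by its probe with the brightest mean signal. The rule found 47 genes on 79 probes among 15229 named genes, and 46 of them passed the filter on dim signal, against 12606 named genes in all. Of the 47, 1 gene caught by its symbol is no subunit: PSMC3IP encodes a cofactor of meiotic recombination. No probe carries the names PSMD13 or PSME3 in the annotation used here, so these genes are not analysed here.

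On each of 4 two-colour arrays, 1 good-donor pool of Holstein granulosa cells was hybridised against 1 poor-donor pool, all taken after ovarian stimulation followed by coasting, in which hormone is withheld for a time, and total RNA had been amplified in 2 linear rounds. The good-donor pools 1 and 2 were in Cy5 on arrays 1 and 2 and pools 3 and 4 in Cy3 on arrays 3 and 4, each against 1 of the poor-donor pools 9 to 12. The design text, which counts 94 animals, ties competence to cows and its lack to heifers, whereas the array titles name heifers, so it is not settled here whether the donor groups also differ in age class. The number of animals in a pool is not given, so p-values measure the spread between arrays and not between animals.

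The 26S proteasome degrades proteins tagged with ubiquitin. Its core is a barrel of outer alpha rings and inner beta rings, in which PSMB5, PSMB6 and PSMB7 carry the proteolytic sites, and a regulatory cap with ATPase and non-ATPase subunits recognises, unfolds and feeds in the substrates. In cells exposed to interferon-gamma and in many immune cells, PSMB8, PSMB9 and PSMB10 take the places of PSMB5, PSMB6 and PSMB7, and the PSME1 and PSME2 activator ring can replace the cap, which alters the peptides available for class I antigen presentation.

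Median foreground intensity was 49.9 to 54.3 in the Cy5 channels and 90.5 to 132 in the Cy3 channels, and 29022 to 32719 probes per channel exceeded the limit set by control spots. Ratios are log2 of good over poor, given as mean ± SD over 4 arrays, and levels are normalized log2 intensities that can be compared between pools for 1 probe but not between probes. All 10 granulosa markers passed the filter on dim signal, with INHA, an inhibin subunit, at 13.76 to 15.53 in the 8 pools. The direction of every ratio rests on the dye labels. The ratios of arrays 1 and 3, which have opposite dye orientations and different pools, correlated negatively over all tested probes (r = -0.34). The other pairs of opposite orientation had r of -0.07, 0.06 and 0.04. Arrays 1 and 2, which share an orientation, had r = -0.02, and arrays 3 and 4, which share the other, 0.29. An exchange of labels was not tested.

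No proteasome gene differed between good-donor and poor-donor pools at an adjusted p under 0.05 (limma, Benjamini-Hochberg over 31917 probes), and the adjusted p of every member was 1.00. The same threshold was passed by 0% of all 12606 named genes, and the smallest adjusted p over all probes was 0.622. At an unadjusted p under 0.05, 3 members were higher in good-donor pools, against 2.71% of named genes, and 1 was lower, against 1.92% of named genes. Over all 31917 tested probes, with or without a gene name, the share in either direction was 3.55%. The ones higher were PSMB4, PSMD6 and PSMG4, and the one lower was PSMG3. Without array 1, 2, 3 or 4, the number of members at an unadjusted p under 0.05 was 4, 1, 1 and 0.

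The members' differences were small. The 95% intervals of all 46 lay between -0.92, the lower bound of PSMB8, and 0.77, the upper bound of PSMB4, so every interval ended within 1 log2 unit of 0, as did those of 11905 of 12606 named genes. The mean ratio was above 0 for 31 of 46 members, against 48.4% of named genes. When arrays were centred on their median in place of loess, it was above 0 for 36 members, against 51.1% of named genes. The 39 subunits and regulators outside the immunoproteasome had a median mean ratio of 0.08, and 29 of them were above 0, whereas all named genes had a median of -0.0030. The 5 immunoproteasome genes had a median of -0.16.

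The 3 catalytic immunosubunits had mean ratios below 0, but for each of them the largest difference came from array 4, whose poor-donor pool had the highest level of all 8 pools. PSMB8, which replaces PSMB5, had levels of 6.88, 6.85, 6.72 and 6.80 in the good-donor pools of arrays 1 to 4 and of 6.87, 6.996, 6.78 and 7.98 in the poor-donor pools. Its 4 good-donor pools and 3 of its poor-donor pools lay close together, and only the poor-donor pool of array 4 stood above them. The probe was dim, at most 0.51% of the brightest probe of a channel, although it exceeded the limit in all 8 channels. Whether low signal narrowed the spread of the pools that lay close together was not tested. The mean ratio was -0.35 ± 0.56 (SD, n = 4; limma unadjusted p = 0.181), and it was -0.07 without array 4.

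PSMB9, which replaces PSMB6, had levels of 8.13, 7.58, 8.10 and 7.98 in good-donor pools and of 7.997, 8.17, 7.91 and 8.85 in poor-donor pools. The groups overlapped, and the direction was split, with 2 arrays on each side of 0. The mean ratio was -0.28 ± 0.52 (SD, n = 4; limma unadjusted p = 0.232), and it was -0.089 without array 4.

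PSMB10, which replaces PSMB7, had levels of 10.33, 10.06, 9.95 and 10.04 in good-donor pools and of 9.90, 10.16, 10.02 and 10.96 in poor-donor pools. The lowest and the highest pool both belonged to the poor donors. The mean ratio was -0.16 ± 0.56 (SD, n = 4, limma unadjusted p = 0.497) and 0.09 without array 4, so the direction of this probe rested on that array. A second PSMB10 probe had ratios of 0.29, -0.55, 0.0059 and -0.61 on arrays 1 to 4, a mean of -0.22. For that probe array 2 was nearly as low as array 4.

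The activator subunits PSME1 and PSME2 had mean ratios above 0. PSME1 had levels of 9.96, 10.63, 10.45 and 10.24 in good-donor pools and of 9.95, 10.32, 10.05 and 10.54 in poor-donor pools, a mean ratio of 0.10 ± 0.32. PSME2 had levels of 10.53, 10.50, 10.96 and 10.73 in good-donor pools and of 10.26, 10.51, 10.33 and 10.80 in poor-donor pools, a mean ratio of 0.21 ± 0.32. On array 4 the ratios of both were below 0, at -0.30 and -0.07, and the pools of both groups overlapped. Without array 3 the means of PSME1 and PSME2 were 0.0036 and 0.063, and without array 4 they were 0.24 and 0.30; without array 2 that of PSME1 was 0.032. The median of the 5 immunoproteasome genes was -0.16 over the 4 arrays and 0.09 without array 4.

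**Figure D1:**
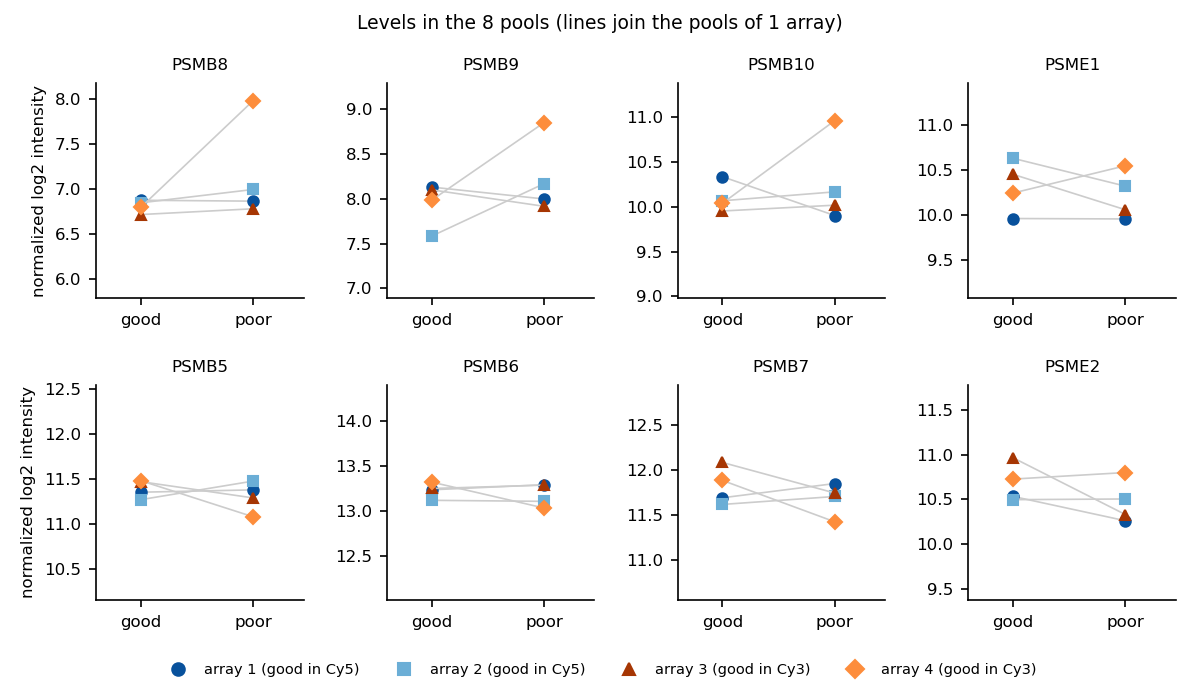
Normalized log2 intensity (vertical axes) of the 5 immunoproteasome genes and of PSMB5, PSMB6 and PSMB7 in each pool, with a symbol for each of arrays 1 to 4 and a line joining the pools of 1 array. In the poor-donor pool of array 4, PSMB8 reached 7.98, while the other 7 pools lay between 6.72 and 6.996.

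The standard catalytic subunits had means nearer to 0 than the catalytic immunosubunits. PSMB5, which carries the chymotrypsin-like site, had ratios of -0.03, -0.21, 0.18 and 0.40 on arrays 1 to 4, a mean of 0.09 ± 0.26. PSMB6, which carries the caspase-like site, had ratios of -0.06, 0.01, -0.04 and 0.29, a mean of 0.05 ± 0.16. PSMB7, which carries the trypsin-like site, had ratios of -0.16, -0.09, 0.34 and 0.46, a mean of 0.14 ± 0.31. For all 3 genes the highest ratio was on array 4, where the immunosubunits had their lowest. Array 4 also had the widest spread of ratios over all tested probes (SD 0.42, against 0.27 to 0.32 on the other arrays). Without array 4 the means of PSMB5, PSMB6 and PSMB7 were -0.017, -0.027 and 0.031.

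Each immunosubunit was set against the standard subunit it replaces by the difference of their log2 ratios within an array. PSMB8 minus PSMB5 was 0.04, 0.06, -0.25 and -1.59 on arrays 1 to 4, a mean of -0.43 ± 0.78 (exact sign-flip test, two-sided p = 0.5). PSMB9 minus PSMB6 was 0.19, -0.59, 0.22 and -1.15, a mean of -0.33 ± 0.66 (exact p = 0.5). PSMB10 minus PSMB7 was 0.59, -0.01, -0.40 and -1.38, a mean of -0.30 ± 0.83 (exact p = 0.625). None of the 3 differences exceeded the spread between arrays, and the adjusted p over the 3 pairs was 0.625 for each. With 4 arrays the smallest p this test can give is 1 in 8, so it cannot reach 0.05. The differences were below -1 on array 4 for all 3 pairs, and without that array the means were -0.05, -0.06 and 0.06.

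Markers of other cells were also high in the poor-donor pool of array 4. The levels of the 23 leukocyte markers with a probe were summed on the linear scale, so bright probes weighed most. The log2 of this sum was 11.13 to 11.90 in the good-donor pools and 11.56 to 13.07 in the poor-donor pools. The 13.07 was that of array 4, where S100A9 alone had a level of 11.49. The other 3 poor-donor pools were at 11.84 or lower. Of 17 leukocyte markers tested, 16 had a mean ratio below 0, the median was -0.34, and the array medians were 0.08, -0.18, 0.03 and -1.13. The defining markers CD79A, ITGAM and NKG7 exceeded the limit in no channel, whereas CD3D, a subunit of the T-cell receptor complex, had a mean ratio of -0.62, CD14 one of -0.73, S100A9 one of -1.84 and S100A8 one of -1.42. None of the leukocyte genes had an unadjusted p under 0.05 (limma). Their part in the immunoproteasome values was not tested, and in pooled tissue fewer cells of a type and less RNA per cell cannot be told apart.

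The summed level of epithelial markers was also highest in that pool, as were 11 of the 12 tested genes, all but OVGP1. The log2 of the linear sum over 14 genes was 12.51 to 14.19 in good-donor pools and 13.34 to 16.04 in poor-donor pools. The highest value was again on array 4, where KRT19 alone had a level of 15.08 in the poor-donor pool. All 12 tested genes had a mean ratio below 0, with a median of -1.19 and array medians of 0.14, -1.28, -0.77 and -2.94. PIGR, WFDC2, KRT4 and EPCAM had an unadjusted p under 0.05 (limma), with mean ratios of -1.82, -1.50, -3.22 and -1.37, against 1.92% of named genes lower at that p. This list was drawn up with those values known and is no independent evidence of its direction, and its part in the proteasome values was not tested.

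Genes of interferon-gamma response and class I antigen processing also had their lowest array median on array 4. Of 19 tested genes, 17 had a mean ratio below 0, with a median of -0.16 and array medians of -0.03, -0.15, -0.13 and -0.61. CXCL10, a chemokine induced by interferon-gamma, had the smallest p, with a mean ratio of -1.01 ± 0.75 (limma unadjusted p = 0.0187). It was the only gene of the list under 0.05, against 1.92% of named genes in that direction. Its ratio was lowest on array 1, at -1.72, and was -1.53 on array 4. CXCL9, of the same list, exceeded the limit in no channel. IDO1, which degrades tryptophan, had a mean of -1.19, GBP4, a guanylate-binding protein, one of -0.68, and CALR, a chaperone of class I loading, one of -0.21. B2M, the light chain of class I molecules, had a ratio of -2.84 on array 4 and a mean of -0.84 ± 1.40, while IRF1, a transcription factor of the interferon response, had a mean of 0.08. B2M and IRF1 were picked after their values were seen.

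Granulosa markers varied widely between arrays. All 10 had a mean ratio above 0, with a median of 0.17 and array medians of 0.11, 0.51, 0.14 and 0.13, but on arrays 1 to 4 only 6, 8, 6 and 6 of them were above 0. The markers were split by dye orientation, and 5 of the 10 had a dye term at an unadjusted p under 0.05 (limma), against 7.77% of named genes in one direction and 7.89% in the other. INHA had ratios of 1.25, 1.76, -0.60 and -0.48, and INHBA and SERPINE2 were likewise above 0 on arrays 1 and 2 and below 0 on arrays 3 and 4, whereas CYP19A1, the aromatase, had ratios of -0.29, -0.82, 0.42 and 1.11. These 4 were picked after their values were seen. FOXL2, a transcription factor of granulosa identity, had a mean ratio of 0.17 (limma unadjusted p = 0.044). It was the only one under 0.05 for the donor difference, against 2.71% of named genes in that direction. Its levels were low, at 6.22 to 6.59, and it exceeded the limit in 6 of 8 channels, only 2 of them of poor-donor pools. GATA4, FSHR and NR5A2 had mean ratios of 0.30, 0.21 and 0.14. Theca and smooth muscle markers had a median of -0.0021 over 5 genes and endothelial markers one of -0.0059 over 4 of 5, with PECAM1 above the limit in no channel.

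**Figure D2:**
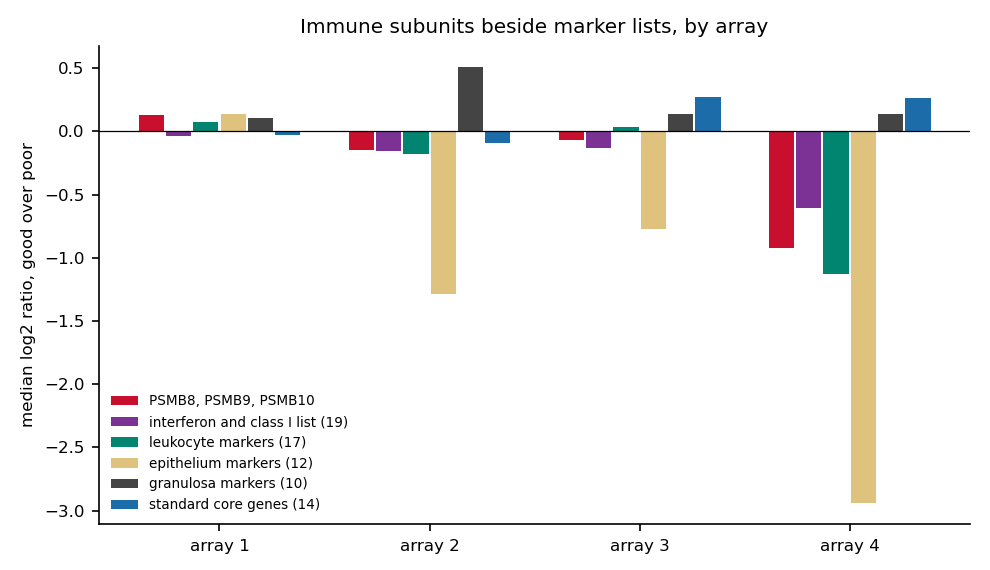
Median log2 ratio of good over poor (vertical axis) on arrays 1 to 4 for PSMB8, PSMB9 and PSMB10, 4 lists of related genes or markers and the 14 standard core genes, with the number of genes in brackets. On array 4 the median was -0.92 for the 3 catalytic immunosubunits, -0.61 for the interferon and class I list, -1.13 for leukocyte and -2.94 for epithelial markers, and 0.13 for granulosa markers.

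The standard beta ring had the highest single member. PSMB4, a non-catalytic beta subunit, had levels of 11.97, 12.08, 12.59 and 12.24 in good-donor pools and of 11.83, 11.94, 11.76 and 11.70 in poor-donor pools. All 4 good-donor pools lay above all 4 poor-donor pools, which 2 members showed, against 1.38% of named genes, while 0 showed the reverse, against 1.03%. The mean ratio was 0.41 ± 0.34, that is 1.33-fold, with a 95% interval of 0.05 to 0.77 (limma unadjusted p = 0.0325). Its other probes had mean ratios of 0.33 and 0.35.

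The other standard beta subunits lay between -0.00068 ± 0.36 for PSMB3 and 0.20 ± 0.23 for PSMB1. In all, 6 of 7 had a mean ratio above 0 and the class median was 0.11, with array medians of -0.03, -0.09, 0.33 and 0.40. Without array 4 that median was 0.01. The sign of PSMB3 turned under several alternatives.

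The alpha ring, whose N-termini gate the entry to the core, had ratios close to 0. Of 7 tested genes 5 had a mean ratio above 0, and the class median was 0.03, with array medians of -0.03, -0.09, 0.15 and 0.14. Without array 3 the median was -0.01. The highest mean was that of PSMA5, at 0.15 ± 0.19, and the lowest that of PSMA1, at -0.03 ± 0.32. PSMA2 was read by 6 probes whose means ran from -0.15 to 0.08, the widest gap between probes of 1 member. PSMA8, an alpha subunit of the testis, exceeded the limit in 1 of 8 channels and was not tested, and the thymus subunit PSMB11 had a mean ratio of -0.0025 at levels of 6.41 to 6.66.

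Cap subunits had mean ratios above 0 in 13 of 16 genes, with a median of 0.11. The 6 ATPases, which unfold the substrate, had a median of 0.08 and array medians of -0.0066, 0.09, 0.13 and 0.19. PSMC2 had the highest mean, 0.21 ± 0.20 (limma unadjusted p = 0.074), with ratios of 0.02, 0.04, 0.40 and 0.36. PSMC3 had the lowest, -0.11 ± 0.26, with a ratio of -0.48 on array 1, and without that array its mean was 0.02. The other PSMC3 probe had a mean of 0.09, and the probes of PSMC4 and PSMC6 also differed in sign.

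The 10 non-ATPase subunits include the ubiquitin receptor PSMD4 and the deubiquitinase PSMD14. Their median was 0.12, with array medians of 0.02, 0.10, 0.15 and 0.30, and 8 of the 10 were above 0. PSMD6, a scaffold subunit of the lid, had levels of 10.12, 10.23, 10.09 and 10.07 in good-donor pools and of 10.09, 10.00, 9.69 and 9.81 in poor-donor pools. It was higher in the good-donor pool of every array, although the 2 groups overlapped by a small margin, with a mean ratio of 0.23 ± 0.16 (limma unadjusted p = 0.0304).

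PSMD4 had the highest mean of the class, 0.30 ± 0.33, with ratios of -0.16, 0.26, 0.58 and 0.51, and PSMD2, a large base subunit, the lowest, -0.06 ± 0.45, with ratios of 0.15, 0.43, -0.62 and -0.19. The sign of PSMD2 went with the dye orientation, and its other probes had means of 0.05 and 0.04. PSMD14 had a mean of 0.02 ± 0.26. The 16 cap genes and the 14 standard core genes had medians of 0.11 and 0.06, and their difference was not tested.

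**Figure D3:**
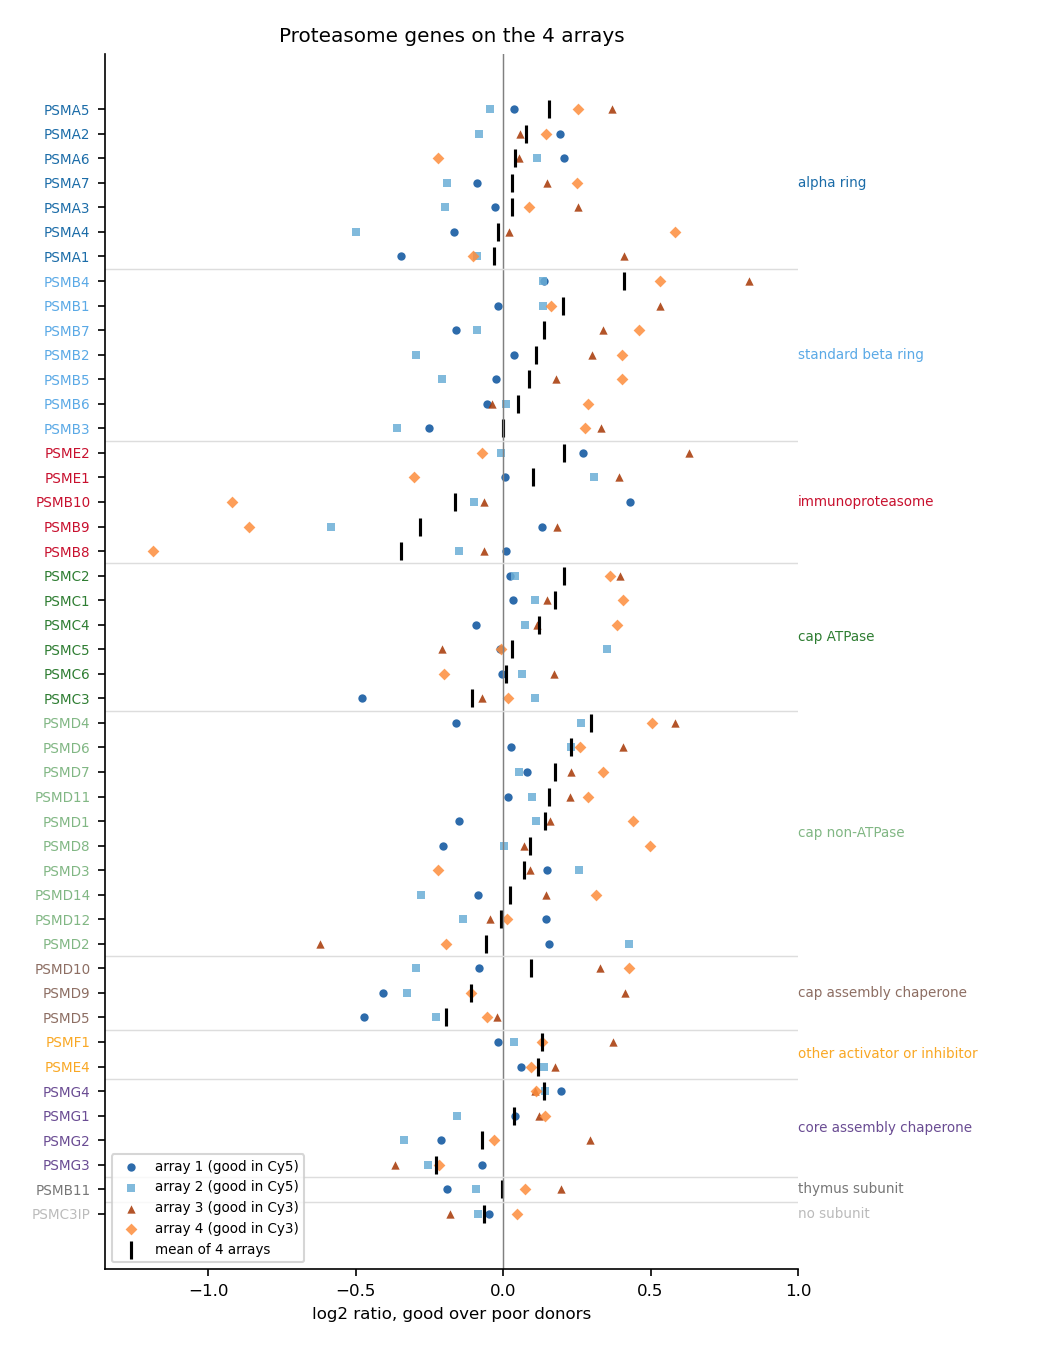
Log2 ratio of good over poor (horizontal axis) for each proteasome gene, grouped by role, with 1 point per array and the mean over 4 arrays. PSMB4 has the highest mean, 0.41, and PSMB8 the lowest, -0.35, with a single point at -1.19.

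Assembly chaperones, which help build the complex and leave it, were mixed. Of the 3 chaperones of the cap, PSMD10 had a mean ratio of 0.09 ± 0.34 and PSMD5 one of -0.19 ± 0.21, with a class median of -0.11. PSMD5 was lower in the good-donor pool on every array, which held for 2 members against 4.64% of named genes.

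PSMG3 and PSMG4, which form a pair that assists assembly of the alpha ring, lay on opposite sides of 0. PSMG4 had levels of 11.18, 11.16, 11.17 and 11.17 in good-donor pools and of 10.98, 11.02, 11.06 and 11.06 in poor-donor pools. The groups did not overlap, and the mean ratio was 0.14 ± 0.04 (limma unadjusted p = 0.0387). Its other probe had a mean ratio of 0.10, with a ratio of -0.03 on array 2. PSMG3 had levels of 8.20, 8.33, 7.94 and 8.02 in good-donor pools and of 8.27, 8.59, 8.31 and 8.24 in poor-donor pools. PSMG3 was lower in the good-donor pool on every array, the groups overlapped, and the mean ratio was -0.23 ± 0.12 (limma unadjusted p = 0.0195). The difference between PSMG3 and PSMG4 was not tested. PSMG1 and PSMG2, which pair in the same pathway, had means of 0.04 and -0.07, and the probes of PSMG2 differed in sign.

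Among the remaining regulators, the activator PSME4 had a mean ratio of 0.12 ± 0.05 and the inhibitor PSMF1 one of 0.13 ± 0.17. PSME4 was higher in the good-donor pool on all 4 arrays, as were PSMB4, PSMC1, PSMC2, PSMD6, PSMD7, PSMD11 and PSMG4. These 8 members compare with 5.43% of named genes. The other probes of PSME4 had means of -0.02 and -0.01, and those of PSMF1 also differed in sign. Over all members, 19 genes had at least 2 tested probes, and in 8 of them the probes differed in sign.

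More members had a ratio above 0 on arrays 3 and 4 than on arrays 1 and 2. The ratio was above 0 for 21 of 46 members on array 1 and for 22 on array 2, against 53.2% and 47.7% of named genes. It was above 0 for 36 on array 3 and for 31 on array 4, against 48% and 48.9%. The 27 members above 0 on both arrays 3 and 4 compare with 29% of named genes. Centring on the median in place of loess moved the median of all named genes to -0.09, -0.12, 0.09 and 0.12 on arrays 1 to 4, and relative to those values the 39 genes outside the immunoproteasome had medians of -0.13, -0.07, 0.34 and 0.40, in place of -0.03, 0.02, 0.18 and 0.26.

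**Figure D4:**
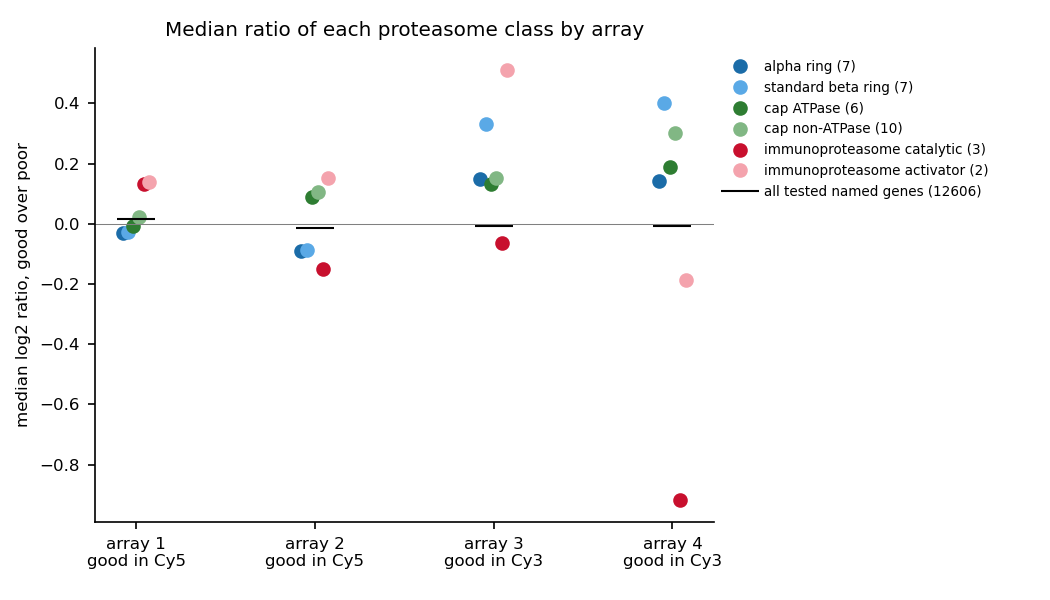
Median log2 ratio of good over poor (vertical axis) of each proteasome class on each array, with the number of genes in brackets and all tested named genes as black dashes. The standard beta ring had medians of -0.03 and -0.09 on arrays 1 and 2 and of 0.33 and 0.40 on arrays 3 and 4, while the 3 catalytic immunosubunits had -0.92 on array 4.

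A ratio above 0 on both arrays 3 and 4 and below 0 on both arrays 1 and 2 was found for 9 members, against 12.8% of named genes, and the reverse for PSMD2 alone, against 12.2%. A dye term, which sets arrays 1 and 2 against arrays 3 and 4, passed an unadjusted p under 0.05 in the Cy3 direction for 11 members, against 7.77% of named genes, and in the Cy5 direction for PSMD2 alone, against 7.89%. The 11 included PSMB2, PSMB3, PSMB4, PSMB5 and PSMB7 of the standard beta ring and 0 immunoproteasome genes. No member passed after adjustment, with 0% of named genes passing, and the smallest adjusted p of a member was 0.198 for PSMB3 (limma). Since each orientation holds 2 arrays with their own pools, dye and pool cannot be told apart. In the fit with the dye term, 9 members had an unadjusted p under 0.05 for the donor difference in the higher direction, against 4.13% of named genes, and 2 in the lower, against 3.07%.

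**Figure D5:**
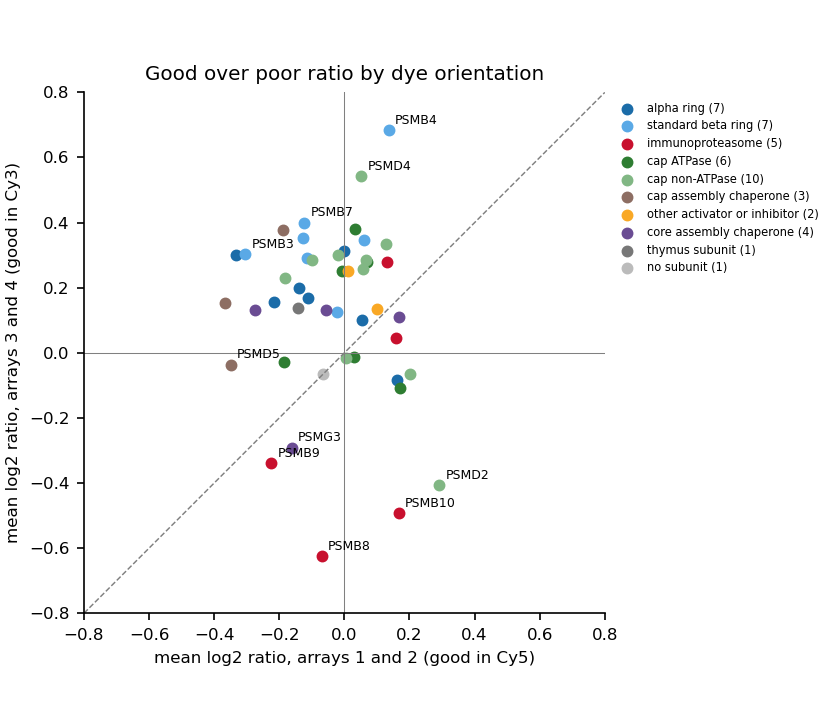
Mean log2 ratio of good over poor on arrays 1 and 2 (good donors in Cy5, horizontal axis) against arrays 3 and 4 (good donors in Cy3, vertical axis), 1 point per gene in the colour of its role. On the dashed line both orientations are equal. Most members lie above it, among them the 11 with a dye term in the Cy3 direction at an unadjusted p under 0.05, while PSMD2, PSMB8 and PSMB10 lie farthest below.

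Genes that act on the proteasome without being subunits were set beside the members. Of 20 tested cofactors and regulators, 11 had a mean ratio above 0, with a median of 0.01 and array medians of 0.0087, -0.02, 0.05 and 0.12. An unadjusted p under 0.05 (limma) was reached by 4, all with a mean above 0, against 2.71% of named genes in that direction: ADRM1, a ubiquitin receptor of the cap, PAAF1, which binds cap ATPases, TXNL1, a thioredoxin that binds the cap, and UBE3C, a ubiquitin ligase that binds the proteasome. Their mean ratios were 0.25 ± 0.19, 0.19 ± 0.13, 0.21 ± 0.16 and 0.31 ± 0.28, and for TXNL1 and UBE3C all good-donor pools lay above all poor-donor pools, against 1.38% of named genes. For UBE3C the margin was very small: the lowest good-donor pool was at 8.39855 and the highest poor-donor pool at 8.39742, both on array 1.

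NFE2L1, a transcription factor that drives proteasome subunit genes, had a mean of 0.10 ± 0.16, and POMP, a maturation factor of the core, one of -0.11 ± 0.22, both picked after their values were seen. Of 7 tested genes that supply activated ubiquitin, 3 had a mean above 0, with a median of -0.03, and 0 had an unadjusted p under 0.05 (limma). The ubiquitin-activating enzymes UBA1 and UBA6 had means of -0.19 and 0.11, and the conjugating enzyme CDC34 one of -0.14.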

How the data were processed

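For 4 arrays the authors deposited linear scanner intensity, per the file headers, as mean foreground and median local background of both dyes (Cy5 at 635 nm, Cy3 at 532 nm). Their deposited table of normalized log2 ratios, whose method is not given in the sources used here, runs as poor over good if the dye labels hold (r of -0.985, -0.975, -0.969 and -0.984 with the ratios used here, column medians 0.023, 0.0039, -0.015 and -0.029) and served as an alternative. Intensities were corrected by normexp (offset 50) and normalized by loess and Aquantile with limma 3.58.1 in R 4.3.3, and ratios were turned by the dye labels. Of 43794 probes, 31917 exceeded the 95th percentile of 757 dark and negative control spots in at least 4 of 8 channels. With lmFit and eBayes, the mean ratio was tested against 0 (two-sided), and p-values were adjusted over all tested probes by the Benjamini-Hochberg method (3 residual and 1.98 prior degrees of freedom). The script was tested on simulated data. The platform annotation names 21790 probes, several genes for 0 and none for 22004, and all 47 member symbols are in the RefSeq table. It can be old, and no coordinates are used.

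Named genes are the immunoproteasome genes and their standard counterparts, the highest and lowest member of each class, members at an unadjusted p under 0.05 or with probes of both signs, and up to 4 genes of smallest p per related list. The members and lists were chosen with earlier results of these data known. Alternatives changed background correction, normalization, filter, model (statmod 1.5.0), probe choice, source of values, threshold and arrays. The number of arrays limits the precision.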

Additional observations from a re-analysis of the deposited data

Results flagged for a closer look

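PSMB8 stood out because 1 of its 4 log2 ratios of good over poor lay far from the rest: it was -1.19 on array 4 and between -0.15 and 0.01 on the other arrays. PSMB9 and PSMB10 also had their lowest ratios on array 4, at -0.86 and -0.92, without lying beyond Dixon's critical value.

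Among genes of the related lists, 3 immune genes stood out on array 4 as well, the array with the widest spread of ratios over all tested probes. NLRC5, an activator of class I genes, had a ratio of -1.62 there and ratios between -0.12 and 0.09 on the other arrays. IRF1 had -0.37 against 0.18 to 0.25, and CORO1A, a leukocyte actin-binding protein, had -0.60 against -0.05 to 0.03. On array 2 the gene annotated as UBE2D3P stood out at -0.45 against 0.0064 to 0.02, and the median of the granulosa markers at 0.51 against 0.11 to 0.14.

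The sets of 4 values examined were 46 members, 9 medians of members (8 classes and all classes together), 3 exchange pairs, 94 genes of related lists and the medians of 8 lists. Of these 160 sets 6 stood out, where chance alone marks about 1 in 20, or 8 sets, and of the 58 that concern members 1 stood out, where chance gives 2.9. The sets are not independent: medians and pairs are built from the same genes, and all sets share the same arrays. These counts therefore do not measure whether a given set stood out by chance.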

How the results depend on the processing

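No member passed the adjusted threshold of 0.05 under any alternative or with any array left out. In the fit as reported (limma), no member passed an adjusted threshold of 0.1 either, and an unadjusted p under 0.05 in its place gave 4 members and 1132 probes. The number of members at an unadjusted p under 0.05, 4 as reported, was 2 with an offset of 16, 0 with median centring, 11 with a dye term, 1 with an intensity trend and 2 with the deposited values, and 0 to 4 with 1 array left out. For the dye term, median centring brought 6 members past the adjusted threshold (0 as reported) and 35 to an unadjusted p under 0.05 (12 as reported), with 893 and 9871 probes over the whole array. The number with a mean above 0 was 30 to 36 over the alternatives and 26 to 35 with 1 array left out. Leaving out 1 array, class medians ranged from 0.03 to 0.12 for all classes, -0.01 to 0.10 for the alpha ring, 0.01 to 0.21 for the standard beta ring, -0.36 to 0.09 for the immunoproteasome, 0.06 to 0.12 for cap ATPases, 0.08 to 0.20 for cap non-ATPases, -0.25 to -0.01 for cap chaperones and -0.09 to 0.06 for core chaperones. With 1 array left out, the sign turned for PSMB10 minus PSMB7 (-0.598 to 0.058), PSMB10 (-0.361 to 0.089), PSMB5 (-0.017 to 0.186), PSMB6 (-0.027 to 0.087) and PSMD10 (-0.016 to 0.225), each without array 4 alone. It also turned for PSMB3 (-0.111 to 0.119; without array 1 or 2), PSMC3 (-0.177 to 0.0175) and PSMA1 (-0.178 to 0.074), both without array 1, PSMG2 (-0.193 to 0.018, without array 2), PSMC6 (-0.047 to 0.078; without array 2 or 3) and PSMD2 (-0.220 to 0.129, without array 3). Median centring turned PSMD2 (0.012), PSMB3 (0.057) and PSMA1 (0.0078), array weights PSMB3 (0.032) and PSMA1 (0.019), median foreground PSMB3 (0.070), the deposited values PSMB3 (0.00022), and the mean over probes PSMA2 (-0.039), PSMC6 (-0.018) and PSMD2 (0.012). Apart from the loss of arrays, the causes were not tested. A mean ratio within about 0.25 of 0, the median half-width of the members' 95% intervals, could not be told from 0 for most members.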
